A study of Mus musculus with 22 samples.

Results

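Immediate early genes are switched on within minutes of a stimulus, from factors that the cell already holds, and their products are short-lived. Many of them encode transcription factors that set off a second wave of gene expression, and others encode proteins that end the signal. In microglia they are also known for being induced when brain tissue is dissociated into single cells with warm enzymes, so in sorted or bead-enriched cells their RNA can come from the animal, from the handling or from both. The 10 genes followed here are Fos, Fosb, Jun, Junb, Egr1, Atf3, Ier2, Dusp1, Nr4a1 and Hspa1a. They were taken as a list of genes known to be inducible by tissue dissociation. The list was not computed from their values, but earlier results of these data were known when it was chosen. All 10 were found among the 56691 genes of both deposited files.

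Bulk RNA-seq was performed on CD11b+ cells, that is microglia and other myeloid cells enriched on magnetic beads, from dissociated whole brains of wildtype CF-1 mice, an outbred strain. There were 22 libraries from 20 animals in 5 groups of 4. Pups with neonatal hypoxic ischemic encephalopathy (HIE) were born to dams given lipopolysaccharide on E18 and were exposed to hypoxia on P6. According to the methods of the study, controls were born to saline-treated dams and kept in normoxia. The early set held 4 HIE pups labelled P7, all male, and 4 control pups labelled P8, P9, P10 and P11, 2 of each sex, although the methods give P7 for all pups. The P14 set held 4 HIE, 4 hypoxia and 4 control animals, 2 of each sex in each group. The hypoxia group is known from its label only, and its dam treatment is not given in the sources used here. No library of undissociated tissue was among the samples, so levels before dissociation were not measured.

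Animals with the same name prefix are called a litter here. Litters did not cross treatment groups. The early HIE pups came from litters N5 and N8 and the early controls from litters P6H63 and P6H55, 2 pups from each. At P14, HIE and control animals came from the P4H and P6H name series in equal numbers, and all hypoxia animals from P6H. The P14 litters were P4H1 and P6H12 for HIE, P4H4 and P6H8 for control and P6H7 and P6H9 for hypoxia, 2 animals from each. The early and P14 sets were deposited as separate files, so the day cannot be told apart from the set of libraries. Total counts ranged from 70191541 to 83469037 per animal in the early set and from 29751486 to 76166750 at P14. Each of the 10 genes passed the filter on low counts in every comparison. The 2 control pups of litter P6H63 stood apart from the other 18 animals. Their microglia marker score, the mean log2 CPM of 16 microglia genes scaled within each set, where CPM is the count of a gene relative to the library total, was 6.40 and 5.77, compared with 8.997 to 9.51 in the other early pups and 9.20 to 9.87 at P14. Their summed CPM of the astrocyte markers was 4269 and 5247, compared with 1385 to 2142 in the other early pups, and that of the endothelial markers 2218 and 1780, compared with 652.5 to 944.9. In such bulk samples, fewer cells of a type and less RNA per cell cannot be told apart. None of the 16 microglia genes was at 0 in litter P6H63, and the summed CPM of these genes was 2453 and 1574, compared with 15420 to 21960 in the other early pups. For the 10 genes, the called counts and fitted differences of the early set are therefore given with and without this litter. Results for other lists of genes are given with it only.

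Some of these genes carry matches to the letters of known promoter elements close to the start of transcription. The 150 bases before the start of the canonical GENCODE transcript are shown for 5 of them, chosen because each holds a match that the search below found. On GRCm39 they lie at chr12:85520508-85520657 (plus strand) for Fos, chr8:85389484-85389633 (minus strand) for Ier2, chr17:26727494-26727643 (minus strand) for Dusp1, chr4:94940460-94940609 (minus strand) for Jun and chr17:35191133-35191282 (minus strand) for Hspa1a. Sequences are written 5′ to 3′ on the strand of the gene. Capitals mark the match to the TATA box in Fos, to the cyclic AMP response element (CRE) in Ier2 and Dusp1, and to the heat shock element in Jun and Hspa1a. Whether these matches act in the cells was not tested.
Fos: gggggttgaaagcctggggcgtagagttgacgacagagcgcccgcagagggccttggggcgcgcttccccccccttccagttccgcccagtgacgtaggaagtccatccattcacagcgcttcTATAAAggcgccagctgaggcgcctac
Ier2: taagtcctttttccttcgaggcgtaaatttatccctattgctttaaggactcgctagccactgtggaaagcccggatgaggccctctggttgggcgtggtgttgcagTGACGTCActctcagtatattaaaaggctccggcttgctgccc
Dusp1: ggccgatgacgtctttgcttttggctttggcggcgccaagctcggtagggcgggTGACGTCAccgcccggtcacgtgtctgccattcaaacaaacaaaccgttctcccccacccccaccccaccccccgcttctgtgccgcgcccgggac
Jun: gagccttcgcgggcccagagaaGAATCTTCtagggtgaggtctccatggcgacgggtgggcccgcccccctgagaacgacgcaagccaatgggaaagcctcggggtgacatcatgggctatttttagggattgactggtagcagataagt
Hspa1a: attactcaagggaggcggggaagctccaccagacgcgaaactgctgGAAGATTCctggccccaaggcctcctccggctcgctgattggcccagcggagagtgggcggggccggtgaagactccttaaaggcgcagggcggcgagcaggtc

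Both strands of the 250 bases before the start were searched in 16299 protein-coding genes. The CRE, TGACGTCA, was found in 1.89% of these promoters and in 2 of the 10 genes, Ier2 and Dusp1. The heat shock element, searched as GAANNTTC, was found in 5.50% of promoters and in 2 of the 10 genes, Jun and Hspa1a. The TATA box, searched as TATAAA, was found in 8.02% of promoters and in 3 of the 10 genes, Fos, Junb and Nr4a1. The match lay at bases -27 to -22 from the start in Fos and -30 to -25 in Junb. In Nr4a1 it lay at -195 to -190, far from the start, and is a match of letters only. The AP-1 site, TGANTCA, which is the letter pattern bound by FOS and JUN dimers, stood in 4.88% of promoters and in none of the 10. The CArG box, the site of serum response factor, stood in 1.25% of promoters and in none of the 10. For the AP-1 site and the CArG box alike, this says only that these exact letters are not in this window. A match to the CRE is not a match to the AP-1 site, since the patterns differ in length.

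Of the 10 genes, 9 ranked among the upper 440 of 21630 protein-coding genes in every group. On the scale of CPM per kilobase of canonical transcript, Fos, the partner of the JUN proteins in the AP-1 factor, was the highest, with a mean level of 1473 in early HIE pups and 869.7 in P14 controls. It ranked 11 in early HIE pups and between 16 and 26 in the other groups. In early HIE pups, the mean level per kilobase was 898.5 for Junb, 769.0 for Egr1, 767.4 for Jun, 448.0 for Dusp1, 426.9 for Nr4a1, 424.2 for Fosb, 354.9 for Ier2 and 277.7 for Atf3. Hspa1a, which encodes the stress-inducible heat shock protein HSP70, was far below them at 5.35, with rank 8276. At P14, Hspa1a stood between rank 1162 in controls and rank 2477 in hypoxia animals.

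The order of the group means was alike for most of the genes. Early HIE pups had the highest mean CPM for all of the genes but Hspa1a, for which P14 controls were highest. The lowest mean was that of P14 HIE animals for Fosb, Jun, Junb, Egr1, Ier2 and Nr4a1, of P14 controls for Fos and Dusp1, and of early controls for Atf3. These orders include litter P6H63. Litter P6H55 alone had a mean of 1762 CPM for Fosb, above the 1604 CPM of early HIE pups. Its Atf3 mean of 318.8 CPM was above that of every P14 group, the highest being 309.8 CPM in controls. For Fos, Jun, Junb, Egr1, Atf3, Ier2, Dusp1 and Nr4a1, litter P6H55 stayed below the early HIE mean. The highest group mean was 1.69 times the lowest for Fos, 4.68 times for Egr1 and 6.98 times for Hspa1a. Most neighbours in these orders overlapped. Early HIE pups were apart from the next group, animal by animal, for Junb, Atf3 and Nr4a1, and early controls were apart from the next group for Fosb. All other neighbours had overlapping ranges.

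**Figure D1:**
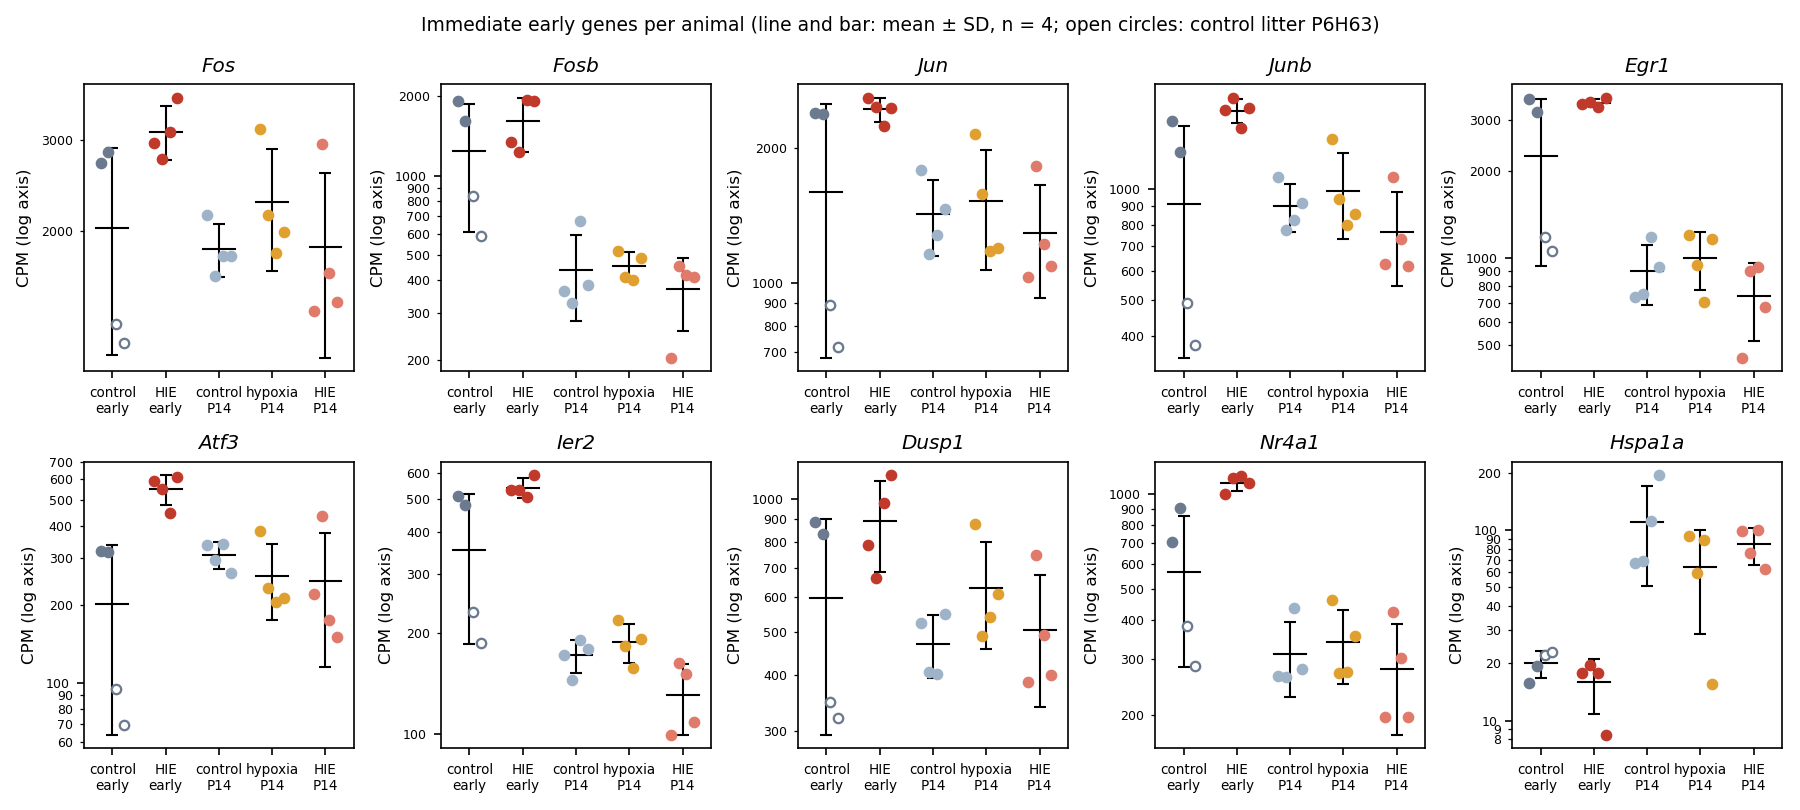
CPM of each of the 10 genes, on a log axis, in each animal of the 5 groups, with the mean and SD of each group (n = 4). Open circles are the 2 control pups of litter P6H63, which lay below every other early pup for all genes but Hspa1a.

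The first comparison asked whether immediate early gene RNA differed between HIE and control pups soon after the hypoxia. The AP-1 genes come first. Fos was at 2961, 2758, 3107 and 3628 CPM in the 4 HIE pups and at 1318, 1209, 2848 and 2706 CPM in the controls. The HIE pups overlapped with the controls of litter P6H55 and were above both pups of litter P6H63. Jun was at 2244 to 2602 CPM in the HIE pups, at 888.4 and 717.2 CPM in litter P6H63 and at 2385 and 2401 CPM in litter P6H55. Junb, whose product also pairs with FOS proteins, was at 1462 to 1764 CPM in the HIE pups, at 490.9 and 379.6 CPM in litter P6H63 and at 1257 and 1522 CPM in litter P6H55. For Fosb, the pups of litter P6H55, at 1609 and 1915 CPM, were within the range of the HIE pups, 1228 to 1931 CPM.

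Atf3, a stress-induced transcription factor that can repress inflammatory genes, had the largest fitted difference. It was at 590.5, 552.4, 447.5 and 613.7 CPM in the HIE pups and at 94.88, 69.47, 317.0 and 320.6 CPM in the controls. Nr4a1, an orphan nuclear receptor, was at 998.0, 1128, 1139 and 1085 CPM in the HIE pups and at 383.3, 285.1, 901.0 and 705.4 CPM in the controls. For these 2 of the 10 genes, every HIE pup was above every control, as was the case for 10.8% of the 22517 genes tested. None of the 10 had every HIE pup below every control, compared with 7.04% of the genes tested. The log2 fold change of HIE compared with control was 1.44 ± 0.50 (SE) for Atf3, with an unadjusted p of 0.0200 and an adjusted p of 0.151 in edgeR's quasi-likelihood test. The mean level was 551.0 ± 73.5 CPM in HIE pups and 200.5 ± 137.0 CPM in controls (SD, n = 4). For Nr4a1 it was 1088 ± 64.05 CPM in HIE pups and 568.7 ± 285.1 CPM in controls, and the log2 fold change was 0.92 ± 0.35, with an unadjusted p of 0.0284 and an adjusted p of 0.158.

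The remaining genes were as follows. Egr1, a zinc finger transcription factor, was at 3339 to 3604 CPM in HIE pups, at 1187 and 1056 CPM in litter P6H63 and at 3218 and 3556 CPM in litter P6H55. Ier2, a small nuclear protein, was at 508.1 to 591.0 CPM in HIE pups, at 231.2 and 186.7 CPM in litter P6H63 and at 480.2 and 509.5 CPM in litter P6H55. Dusp1, the phosphatase that switches off MAP kinases, was at 664.3 to 1135 CPM in HIE pups, at 348.1 and 320.9 CPM in litter P6H63 and at 832.5 and 889.1 CPM in litter P6H55. In each of these genes the controls fell into a low and a high pair by litter. Hspa1a differed from this pattern. It was at 17.79, 19.62, 17.73 and 8.36 CPM in HIE pups and at 21.96, 22.89, 19.35 and 15.74 CPM in controls, with the pups of litter P6H63 at the top.

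None of the 10 genes passed an adjusted p of 0.05 in edgeR's quasi-likelihood test, in which 0.0666% of all genes (15 of 22517) passed, and 2 of the 10 had an unadjusted p under 0.05, Atf3 and Nr4a1, as did 27.3% of all genes. DESeq2 called 1 of the 10, Atf3, with an adjusted p of 0.0385, while it called 13.6% of all genes, and edgeR's likelihood ratio test called none, compared with 6.44% of all genes. The fitted log2 difference was above 0 for 9 of the 10 genes, from 0.36 for Fosb to 1.44 for Atf3, and -0.34 ± 0.26 for Hspa1a. It was 0.61 for Fos, 0.60 for Jun, 0.82 for Junb, 0.60 for Egr1, 0.61 for Ier2 and 0.56 for Dusp1, with SEs between 0.33 and 0.44. The median was 0.60 over the 10 genes and -0.08 over all genes tested.

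These differences depended on the control litter. Relative to litter P6H63, the geometric mean of the HIE pups was 2.24-fold for Fosb, 2.46-fold for Fos, 3.10-fold for Egr1, 3.28-fold for Nr4a1 and 6.74-fold for Atf3. Relative to litter P6H55, it was 0.897-fold for Fosb, 1.12-fold for Fos, 1.02-fold for Egr1, 1.36-fold for Nr4a1 and 1.72-fold for Atf3. Without litter P6H63, none of the 10 genes and 0.112% of all genes were called by the quasi-likelihood test, and the log2 difference was 0.78 for Atf3 (adjusted p = 0.128), 0.43 for Nr4a1 (adjusted p = 0.212), and between -0.15 and 0.22 for the rest. Without litter P6H55, 9 of the 10 genes were called, and so were 58.5% of all genes. Leaving out 1 animal at a time gave 0 to 1 called genes, the 1 being Nr4a1 without pup P6H55-7, with a log2 difference of 1.25 (adjusted p = 0.0364), a setting in which 24.2% of all genes were called. Litter, labelled day and marker content moved together among the controls, and their part in the result was not tested.

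**Figure D2:**
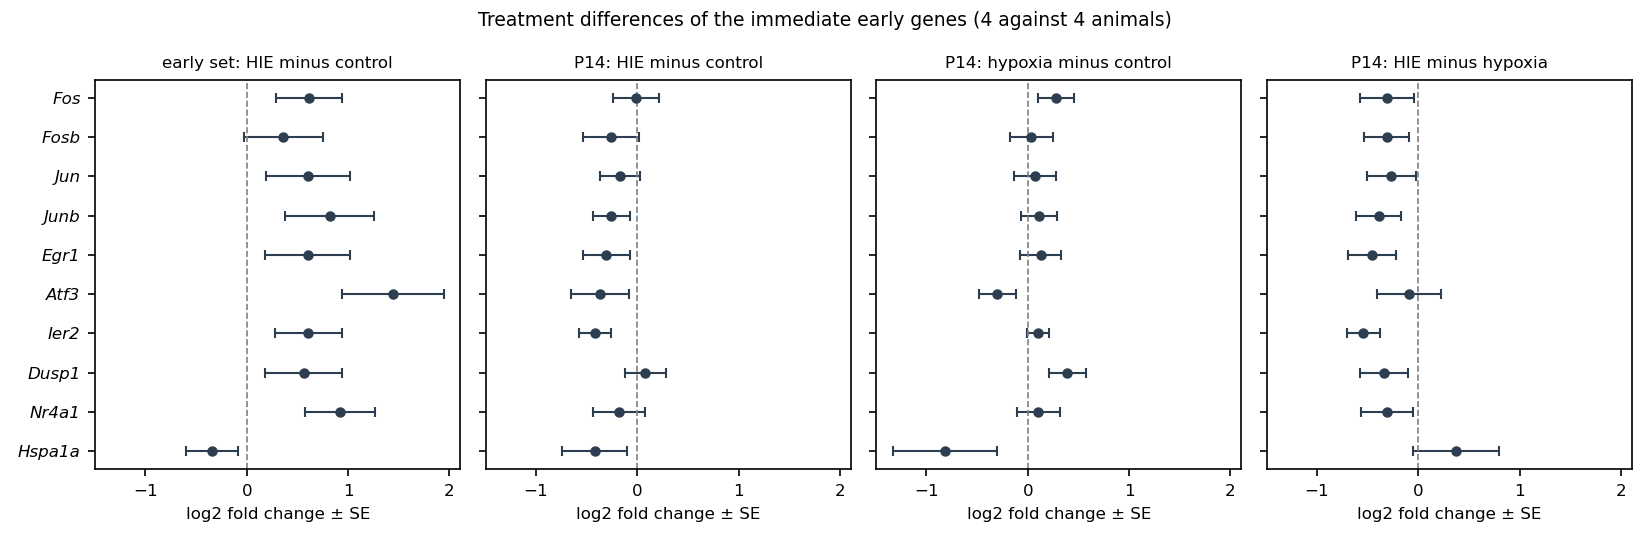
Fitted log2 fold change with its SE for each of the 10 genes in 4 comparisons of 4 against 4 animals. In the early set 9 genes were fitted above 0 with wide errors, at P14 the genes lay on both sides of 0, and no gene passed an adjusted p of 0.05 in any of the 4 panels.

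Other genes of the early response were tested as lists. Of 20 other immediate early transcription factors, 19 were tested and 1 passed, Klf10, with no gene called lower. Of all genes, 0.0666% passed (15 of 22517). The lists were chosen with earlier results of these data known. Klf10, a zinc finger factor induced by TGF-beta, was at 103.1, 109.0, 91.75 and 100.2 CPM in the HIE pups and at 65.02, 60.91, 62.20 and 63.14 CPM in the controls. Here both control litters were alike, and the log2 fold change was 0.67 ± 0.08 (adjusted p = 0.0484). The HIE pups differed from all controls in litter and labelled day, and all were male. In the early set, treatment cannot be told apart from litter or labelled day, for Klf10 as for the other genes. No gene passed among 30 other early-response regulators (median log2 difference 0.78), 15 heat shock genes (0.06) or 19 upstream kinases and factors (0.15). At an unadjusted p under 0.05 there were 4 of the 19 other transcription factors, 14 of the 30 regulators, 3 of the 15 heat shock genes and 7 of the 19 upstream genes, beside the 27.3% of all genes. All of these list results include litter P6H63, and their dependence on it is not given.

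At P14, the comparisons asked whether a difference was present at the later day and whether the hypoxia group differed from either other group. Fos was at 1393, 2940, 1450 and 1654 CPM in HIE animals, at 3156, 1808, 1986 and 2140 CPM in hypoxia animals and at 1635, 1788, 2146 and 1785 CPM in controls. The 3 groups overlapped, and 1 animal in each of the HIE and hypoxia groups was above the rest. Ier2 was at 99.29, 163.1, 108.4 and 151.3 CPM in HIE animals, at 218.4, 157.5, 192.1 and 183.1 CPM in hypoxia animals and at 145.2, 179.4, 171.6 and 190.3 CPM in controls. Of the 10 genes it had the smallest p-value in both comparisons of HIE animals, and HIE animals overlapped with both other groups. Its log2 fold change was -0.42 ± 0.16 in HIE compared with control (unadjusted p = 0.0242, adjusted p = 0.400) and -0.54 ± 0.16 in HIE compared with hypoxia (unadjusted p = 0.00751, adjusted p = 0.999). Each name series held 1 HIE litter and 1 control litter, so treatment and litter cannot be told apart within a series. Within the name series, the difference of HIE from control for Ier2 was -0.31 in P4H animals and -0.53 in P6H animals, 2 against 2 littermates in each. For Atf3 it was -0.04 and -0.88, and for Hspa1a 0.34 and -0.90, so that these differences were not alike in both series.

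Dusp1 was at 385.8 to 747.7 CPM in HIE animals, at 491.7 to 876.8 CPM in hypoxia animals and at 402.6 to 549.0 CPM in controls. It was fitted higher in hypoxia animals than in controls by 0.39 ± 0.18 on the log2 scale (adjusted p = 0.533) and was 0.08 ± 0.20 in HIE compared with control. Atf3, the gene with the largest early difference, was at 150.6 to 434.1 CPM in HIE animals, at 204.9 to 380.6 CPM in hypoxia animals and at 263.1 to 341.5 CPM in controls. Its log2 difference from control was -0.37 ± 0.28 in HIE and -0.30 ± 0.19 in hypoxia animals. For both genes the groups overlapped.

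No gene of the 10 was called in any of the 3 comparisons at P14 by edgeR's quasi-likelihood test, by DESeq2 or by the likelihood ratio test. Of all genes, the quasi-likelihood test called 0.00478% in HIE compared with control, 0.00955% in hypoxia compared with control and 0.00955% in HIE compared with hypoxia. DESeq2 called 2.34%, 0.783% and 0.0716% of all genes in these comparisons, and the likelihood ratio test 1.13%, 0.305% and 0.100%. At an unadjusted p under 0.05 there were 1, 0 and 1 of the 10 genes, Ier2 in each case, compared with 9.87%, 9.53% and 4.53% of all genes, so that these counts were near the share over all genes. None of the 10 had groups that did not overlap, compared with 5.64%, 5.08% and 2.59% of all genes tested. The fitted difference was below 0 for 9 of the 10 genes in HIE compared with control (median -0.26, compared with 0.01 over all genes) and for 9 of the 10 in HIE compared with hypoxia (median -0.31, compared with -0.01). It was above 0 for 8 of the 10 in hypoxia compared with control (median 0.10, compared with -0.01). These comparisons share animals and are not independent of each other. Among the wider lists no gene passed at P14 in the quasi-likelihood test. At an unadjusted p under 0.05 there were 2, 4, 2 and 2 genes of the 4 lists in HIE compared with control, 1, 3, 2 and 1 in hypoxia compared with control, and 0, 5, 1 and 1 in HIE compared with hypoxia, beside the same shares of all genes of 9.87%, 9.53% and 4.53%. The 3 most abundant of their genes at P14 were Rhob, a small GTPase, Zfp36, which promotes decay of cytokine mRNAs, and Hspa8, a constitutive heat shock protein, with log2 differences in HIE compared with control of 0.03, 0.04 and -0.01.

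Littermates also differed from each other. In litter P4H1, pup 6F exceeded pup 1M for 9 of the 10 genes, from 1.64-fold for Ier2 to 2.24-fold for Fosb, although both belonged to the HIE group. In litter P6H12 the ratio of 11M to 14F was 1.02-fold for Fosb to 1.54-fold for Nr4a1 over the same 9 genes. The mean log2 CPM over these 9 genes, scaled within the set, was 8.52 in P4H1-1M, the lowest at P14, and 9.43 in P4H1-6F, second to hypoxia animal P6H7-16M at 9.63. The other 9 animals at P14 were between 8.68 and 9.29.

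Whether the HIE effect itself differed between the sets was tested as an interaction in 1 fit of all 20 animals. No gene of the 10 and no gene of the 24503 tested passed (0% called) with the quasi-likelihood test, and 3529 genes had an unadjusted p under 0.05. DESeq2 and the likelihood ratio test called none of the 10 either, compared with 2.87% and 2.49% of all genes, and 4 of the 10 had an unadjusted p under 0.05, compared with 14.4% of all genes. These were Atf3, with a difference in log2 fold change of 1.80 ± 0.58 (adjusted p = 0.155), Nr4a1, with 1.09 ± 0.45 (adjusted p = 0.276), Junb, with 1.07 ± 0.47 (adjusted p = 0.313), and Ier2, with 1.02 ± 0.36 (adjusted p = 0.196), each larger in the early set. Without litter P6H55, 9 of the 10 were called, together with 30.1% of all genes. Without pup P6H55-7, 2 were called, Atf3 at 2.11 (adjusted p = 0.0386) and Ier2 at 1.202 (adjusted p = 0.0479), as were 6.99% of all genes. Without litter P6H63, none of the 10 was called, nor was any other gene (0%).

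Between the sets, the levels of several of these genes differed widely. In HIE animals, 7 of the 10 genes were lower at P14 by the quasi-likelihood test, compared with 17.0% of all genes, and 1 was higher, compared with 18.7%. Of the 7 lower genes, Egr1 had the largest difference. It was at 3339 to 3604 CPM in early HIE pups and at 450.0 to 932.3 CPM in P14 HIE animals, a log2 difference of -2.23 ± 0.35 (adjusted p = 9.6e-05). It was -2.11 ± 0.34 for Fosb (adjusted p = 0.000124), -2.05 ± 0.26 for Ier2 (adjusted p = 1.0e-05) and -1.96 ± 0.33 for Nr4a1 (adjusted p = 0.000154). It was -1.17 ± 0.41 for Atf3 (adjusted p = 0.0338), -1.09 ± 0.34 for Junb (adjusted p = 0.0170) and -0.93 ± 0.33 for Jun (adjusted p = 0.0372). For these 7 genes every P14 HIE animal was below every early HIE animal, as was the case for 22.6% of all genes. Fos, at -0.74 ± 0.29 (adjusted p = 0.0536), and Dusp1, at -0.82 ± 0.31 (adjusted p = 0.0506), did not pass and overlapped. DESeq2 and the likelihood ratio test called all 10 genes in this comparison, and 39.8% and 36.5% of all genes. With the sex label as a covariate Atf3 lost its call (adjusted p = 0.0621) while 32.1% of all genes were called. The early HIE pups were all male, and 2 of the 4 P14 HIE animals were female.

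Jun and Atf3 were close to the threshold. Jun was no longer called when any 1 of the HIE animals other than P4H1-6F was left out (adjusted p of 0.0546 to 0.0954), and Atf3 no longer when any 1 of N5-3, N5-4, N8-4, P4H1-1M, P6H12-14F or P6H12-11M was left out (adjusted p of 0.0556 to 0.104). Without P6H12-14F, Junb was also lost (adjusted p = 0.0535), which left 5 genes, while 28.3% of all genes were called. Without P4H1-6F, all 10 genes were called, as were 34.5% of all genes.

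In controls, 4 genes were lower at P14, compared with 26.0% of all genes, and 1 was higher, compared with 22.0%. Fosb was at 588.8 to 1915 CPM in early controls and 329.6 to 669.8 CPM in P14 controls, with a log2 difference of -1.50 ± 0.34 (adjusted p = 0.00157). Egr1 was lower by -1.33 ± 0.34 (adjusted p = 0.00428), Ier2 by -1.04 ± 0.25 (adjusted p = 0.00300) and Nr4a1 by -0.87 ± 0.32 (adjusted p = 0.0307). Fos (-0.14), Jun (-0.17), Junb (-0.02), Dusp1 (-0.34) and Atf3 (0.63) did not pass. The low pups of litter P6H63 widened the range of the early controls, and without this litter 8 of the 10 genes were called, as were 35.5% of all genes, with Jun at -0.75, Junb at -0.62 and Dusp1 at -0.86 now past the threshold. Without litter P6H55, none of the 4 lower genes was called (Fosb -0.70, Egr1 -0.31, Ier2 -0.28, Nr4a1 -0.10), and Jun at 0.83, Junb at 1.05 and Atf3 at 1.92 were called higher at P14, as was Hspa1a, in a setting in which 59.4% of all genes were called. Nr4a1 lost its call without any 1 of P6H55-7, P6H55-12, P4H4-8M, P6H8-8F or P4H4-7F (adjusted p of 0.0710 to 0.132). Both day comparisons compare 2 sets of libraries, and the day cannot be told apart from the set.

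The wider lists were counted beside the shares of all genes given above, 17.0% called lower and 18.7% higher at P14 in HIE animals, and 26.0% lower and 22.0% higher in controls. In HIE animals, 14 of 19 other immediate early transcription factors were called lower at P14 and 1 higher, and in controls 7 lower and 1 higher. Among 30 early-response regulators, 18 were called lower and 3 higher in HIE animals, and 8 lower and 5 higher in controls, where the lower count was near the share of all genes. Of 15 heat shock genes, 5 were lower and 1 higher in HIE animals and 5 lower and 2 higher in controls. Of 19 upstream factors, 10 were lower and 1 higher in HIE animals and 8 lower and 2 higher in controls. In HIE animals, those ranking first by adjusted p were Klf10 (-1.71), the stress gene Gadd45b (-2.37), Srf (-1.20), which encodes serum response factor, the small MAF factor gene Maff (-2.43), the kinase gene Sgk1 (2.34) and Mapk3 (-1.05), which encodes the kinase ERK1. In controls they were Sgk1 (3.08), the co-chaperone gene Bag3 (-0.996), Srf (-0.92), Klf10 (-1.03), Ier5l (-1.98) and Mrtfb (-1.02), a coactivator of serum response factor. Sgk1, a target of glucocorticoid signaling, went the other way from most, with 80.33 to 247.3 CPM over the early pups and 646.4 to 1564 CPM over the P14 animals.

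Hspa1a was the 1 gene of the 10 called higher at P14 in both day comparisons. It was at 8.36 to 22.89 CPM in the early set. At P14 it was at 98.58, 75.62, 62.46 and 100.1 CPM in HIE animals, at 92.91, 89.01, 15.53 and 59.49 CPM in hypoxia animals, and at 68.79, 195.5, 67.53 and 111.7 CPM in controls. Every P14 HIE animal and every P14 control was above every early animal of its treatment, as was the case for 19.6% of all genes in HIE animals and 16.6% in controls. Hypoxia animal P6H9-15F was the exception among the P14 animals, within the early range. The log2 difference between P14 and early was 2.47 ± 0.44 in controls (adjusted p = 0.000236) and 2.41 ± 0.44 in HIE animals (adjusted p = 0.000363). Among the P14 groups the spread was wide, with differences of -0.42 ± 0.32 in HIE compared with control, -0.82 ± 0.51 in hypoxia compared with control and 0.37 ± 0.43 in HIE compared with hypoxia, none of which passed.

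Hspa1a has a near-identical neighbour, Hspa1b, and reads that fit both are divided by the counting program, so the level of either alone is uncertain. Hspa1a made up 34.1 to 39.1% of the sum of the pair in the early set, 38.9% to 60.9% in the P14 animals other than P6H9-15F, and 35.6% in P6H9-15F. With both genes summed, the difference between P14 and early was 2.09 ± 0.41 in controls (adjusted p = 0.000538) and 2.09 ± 0.41 in HIE animals (adjusted p = 0.000667). The sum did not pass between treatments, with -0.32 in the early set and -0.35, -0.88 and 0.50 in the 3 comparisons at P14. Summed CPM of the red blood cell markers ranged from 13.52 to 45.93 in the early set and from 48.73 to 1579 at P14, and the part of blood in the Hspa1a levels was not tested.

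**Figure D3:**
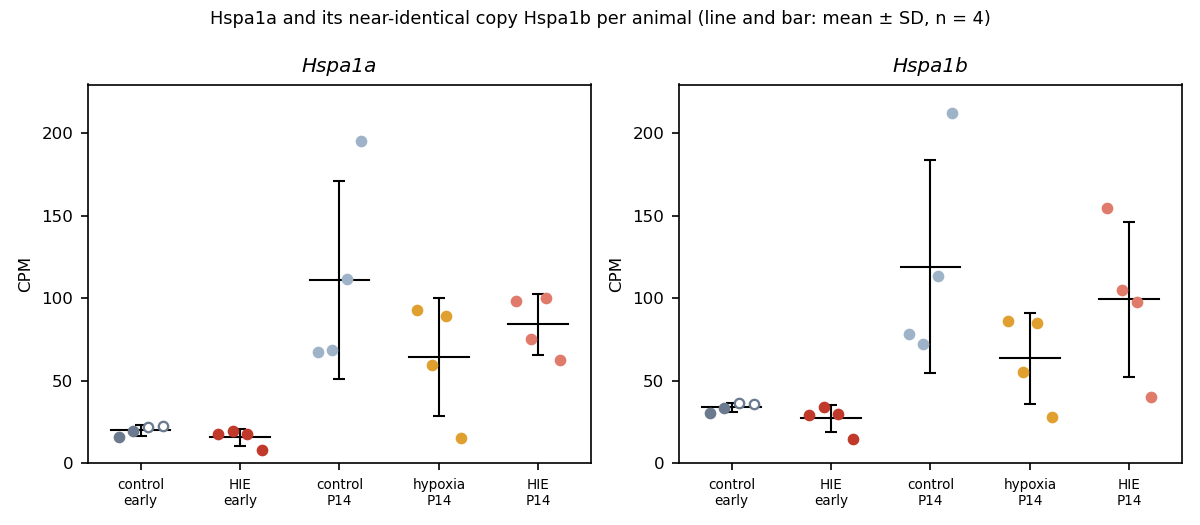
CPM of Hspa1a and of its near-identical copy Hspa1b in each animal, with the mean and SD of each group (n = 4). Both were low in all early pups and, except in hypoxia animal P6H9-15F, higher at P14, where Hspa1a ranged from 15.53 to 195.5 CPM.

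The 9 genes other than Hspa1a moved together from animal to animal. After centring on the group means, Pearson's r over the 20 animals was between 0.636 and 0.984 for the 36 pairs among them, with a median of 0.860. The highest was that of Jun and Junb. Over the 18 animals without litter P6H63 the median was 0.681, with a range of 0.178 to 0.950. Fosb with Atf3 was the lowest pair in both, at 0.636 and 0.178, and Jun with Junb stayed the highest, at 0.950. For Hspa1a the 9 values of r were between -0.197 and 0.015, and between -0.148 and 0.225 without litter P6H63, where Jun with Hspa1a (0.225) was above Fosb with Atf3. The animals share libraries and scaling across genes, so these values are a description.

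**Figure D4:**
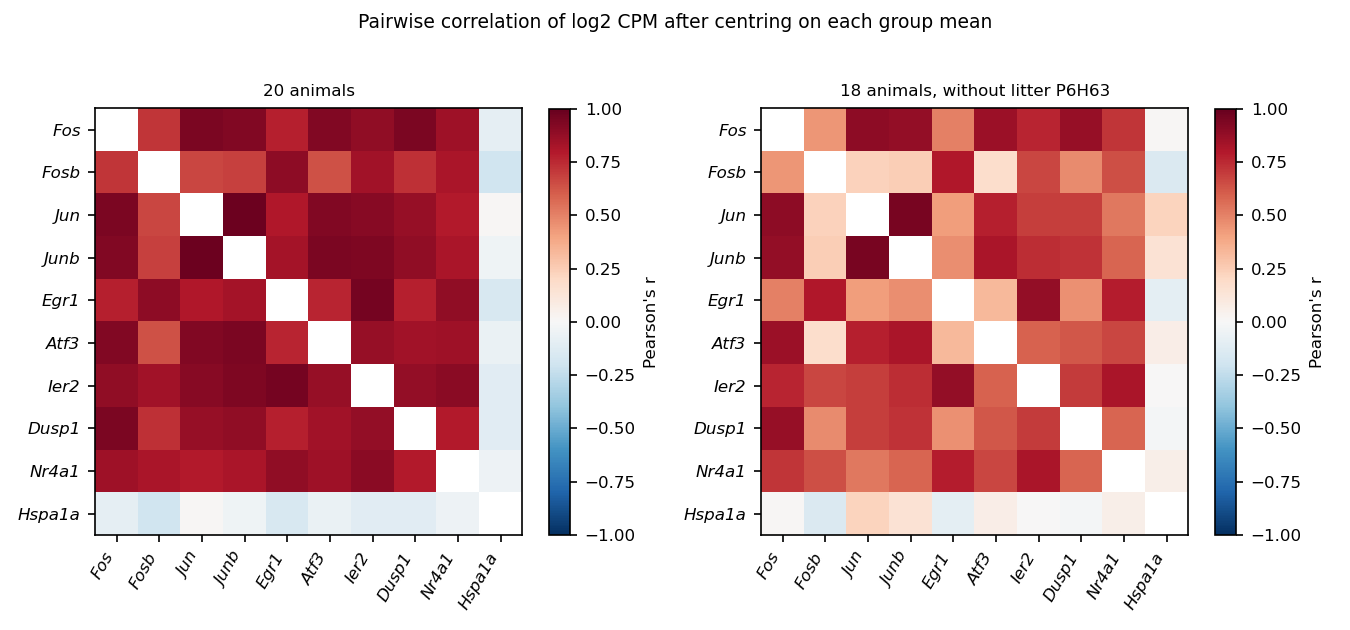
Pearson's r between the log2 CPM of each pair of genes after centring on group means, over 20 animals (left) and over 18 animals without litter P6H63 (right), with the diagonal left blank. The 9 genes other than Hspa1a form a positive block in both panels, paler on the right. The values with Hspa1a lie near 0 on the left and reach 0.225 on the right, above the lowest value of the block there.

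The genes whose pattern over the 20 animals was most like the mean of the 10, out of 24493 other genes, were Zpr1 (r = 0.967), Nop56 (0.962), Ell (0.961), Ddhd2 (0.961) and Klf6 (0.959). Without litter P6H63 their r was between 0.881 and 0.905. Both patterns were centred on group means, and the animals share libraries and scaling. Klf6 is an immediate early transcription factor of the wider lists. Nop56, a core protein of small nucleolar ribonucleoproteins, Ell, a transcription elongation factor, Zpr1, a zinc finger protein, and Ddhd2, a lipase, are not in them.

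The last question was whether these genes followed the microglial content of the preparations. The early animals formed 2 clusters of microglia marker score, so an r over all 8 joins the clusters and is not used as a result here. In the 2 pups of the low cluster, the mean log2 CPM over the 9 genes was 8.99 and 8.67, and in the 6 of the high cluster it was between 10.28 and 10.62. Within the 6, Pearson's r with the score was between -0.702 for Fosb and 0.873 for Nr4a1, with a median of 0.202. For Nr4a1, Spearman's rho was 0.600 (exact permutation test, two-sided, p = 0.0222 for r and 0.242 for rho, adjusted p = 0.390 and 0.659 over 30 relations), and r was 0.539 without the 2 pups farthest from the median score. For Atf3, r was 0.833 and rho 0.714 (exact permutation test, p = 0.0486 and 0.136, adjusted p = 0.390 and 0.659), and r was 0.885 without the 2 farthest. In these 6 pups the HIE pups also had the higher scores, 9.31 to 9.51, compared with 9.16 and 8.997 in the controls, so score and treatment cannot be told apart.

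At P14 the scores lay close together. Over the 12 animals, r was between -0.362 for Fosb and 0.571 for Jun, with a median of 0.373, and over the 8 animals of the P6H series it was between -0.422 for Fosb and 0.736 for Jun. After centring on group means, r over the 12 animals was between -0.285 for Fosb and 0.775 for Jun, with a median of 0.547. The centred values were not tested. For Jun over the 12 animals, rho was 0.462 (permutation test with 100000 resamples, p = 0.0520 for r and 0.132 for rho, adjusted p = 0.390 and 0.659), and r was 0.598 without the 2 animals farthest from the median score. No relation of the 30 passed after adjustment. Genes such as Egr1 (-0.229) and Ier2 (-0.069) had an r near or below 0 over the 12 animals before centring.

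**Figure D5:**
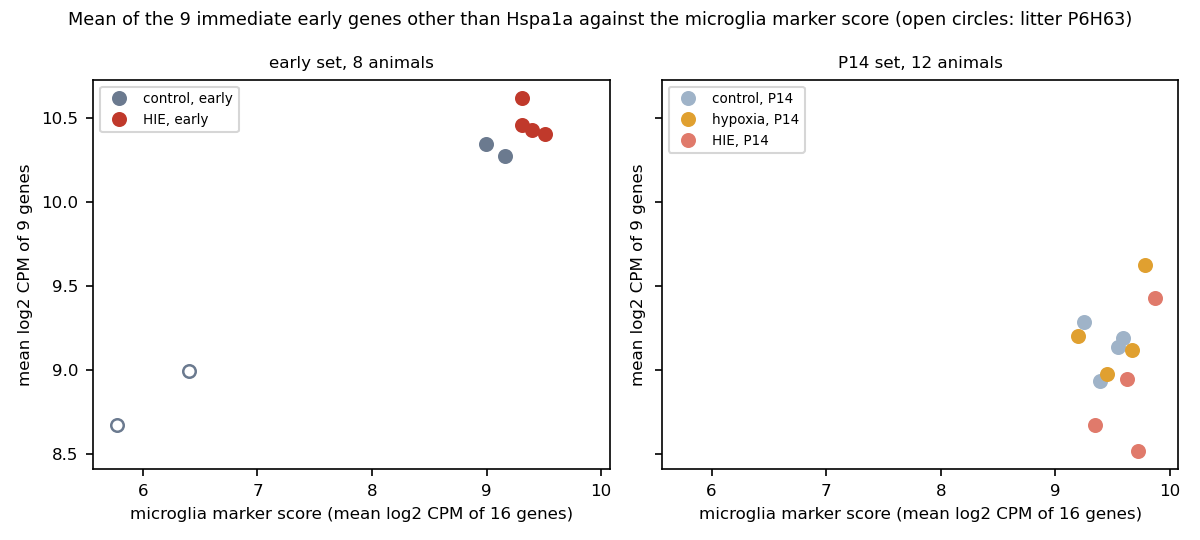
Mean log2 CPM of the 9 genes other than Hspa1a against the microglia marker score of each animal, in the early set (left) and at P14 (right), both on log2 scales within the set. The 2 open circles are litter P6H63 with scores of 6.40 and 5.77, and all other animals lie between 8.997 and 9.87.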

How the data were processed

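CD11b+ cells were measured by stranded total RNA sequencing after ribosomal depletion. Per the labels and the study's methods, reads were aligned with STAR to GRCm39 and counted with RSEM, and the authors deposited the expected counts per gene without scaling, as 1 table for the early set (8 libraries) and 1 for P14 (14 libraries). Of 56691 genes, 56017 matched GENCODE release M39, which gave names and lengths, and 674 did not. Expected counts were rounded, and the 2 libraries of each of 2 animals were summed, which left 4 animals in each of 5 groups. RSEM divides reads that fit several genes, which makes near-identical copies uncertain. Nothing says that littermates were handled separately, and each group held only 2 litters, which did not cross treatments. The tests counted each animal as a unit, with no term for litter. The p-values therefore measure the spread between these animals, littermates included, and not the spread between litters. Total counts per animal were 29751486 to 83469037.

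Genes were filtered with filterByExpr, scaled by TMM and tested with edgeR 4.0.16 (quasi-likelihood, R 4.3.3) on all genes, with Benjamini-Hochberg adjustment and a threshold of 0.05. Comparisons within a set used the groups compared, and the day and interaction comparisons came from 1 fit of all 20 animals with a term per group. CPM were scaled over 20 animals, and marker scores within each set (16 of 17 microglia genes matched). DESeq2 1.42.0, other scalings and filters, covariates and left-out animals or litters were alternatives. The fits were also run on simulated counts of independent animals, with no litter effect and no difference in marker content. That run therefore does not show how the tests behave with litters such as those here. Figures used matplotlib 3.10.9, permutation tests numpy 2.4.6, and ranks scipy 1.17.1.

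The 10 genes and the wider lists were chosen with earlier results of these data known. All 10 genes are named. From the wider lists, up to 6 genes with the smallest adjusted p under 0.05 are named in each comparison, or once the 3 most abundant where none passed, and for likeness the 5 genes with the highest r. The sum with Hspa1b, the correlations without litter P6H63 or in P6H animals only, and the likeness and pairwise r without litter P6H63 were chosen after seeing the data.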

Additional observations from a re-analysis of the deposited data

Results flagged for a closer look

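In 3 of 50 groups of 4 animals, 1 animal stood far from the others of its group by Dixon's ratio of gap to range at the 95% level. Chance gives about 1 such group in 20. Fosb in P14 HIE animals was at 203.0 CPM in P4H1-1M, compared with 410.7 to 454.4 CPM in the other 3 (ratio 0.874). Nr4a1 in P14 controls was at 435.4 CPM in P6H8-7M, compared with 264.6 to 278.8 CPM (ratio 0.895). Hspa1a in early HIE pups was at 8.36 CPM in N8-4, compared with 17.73 to 19.62 CPM (ratio 0.881).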

How the results depend on the processing

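The number of the 10 genes called in the early comparison, 0, was 1 with DESeq2, 9 without litter P6H55 and 0 to 1 when each animal was left out. For controls between days it was 5, and became 9 with the microglia score as a covariate (35.7% of all genes), 8 without litter P6H63 and 4 to 5 with each animal left out. For HIE animals between days it was 8, became 7 with the sex label as a covariate, which ended the call of Atf3, and was 5 to 10 with each animal left out. Fos and Dusp1 were gained with DESeq2 (39.8% of all genes called) and the likelihood ratio test (36.5%). They were also gained with library size only (8619 of 24503 genes), no filter (8330 of 39367) and the microglia score as a covariate (11428 of 24503). For the interaction the number called was 0, and became 9 without litter P6H55 and 0 to 2 with each animal left out. The counts at P14 stayed at 0 in all alternatives run. With the microglia score as a covariate, the early difference turned to -0.29 for Fosb, -0.16 for Jun, -0.16 for Egr1, -0.030 for Ier2 and -0.084 for Dusp1, that of Dusp1 in HIE and control animals at P14 to -0.22, and that of Atf3 in controls between days to -0.41. Without litter P6H63, Fosb in the early comparison turned to -0.14 and Atf3 in controls between days to -0.039. Without litter P6H55, the difference in controls between days turned to 0.55 for Fos, 0.83 for Jun, 1.05 for Junb and 0.50 for Dusp1. Junb in controls between days turned to 0.0048 with RLE size factors, to 0.0048 with DESeq2 and to 0.065 with a minimum mean CPM of 1. With each animal left out, it ranged from -0.26 to 0.34 for Junb, -0.30 to 0.078 for Fos and -0.39 to 0.10 for Jun, and in HIE compared with control at P14 from -0.155 to 0.187 for Dusp1 and -0.60 to 0.0060 for Hspa1a. The causes were not tested. Over 43 single-gene differences, 752 of 841 values under alternatives kept direction and side of the threshold. All 10 genes entered for the early and day comparisons. For the treatment comparisons at P14 and the interaction, only some of the genes entered, and the rest were not counted. The median r of the 10 genes with the microglia score over all 8 early pups joins 2 clusters and is no result of its own. It was 0.954 to 0.986 with each pup left out and 0.762 as Spearman's rho, but 0.202 without the 2 pups farthest from the median score, those of litter P6H63. At P14 it was 0.373, and 0.227 as Spearman's rho, 0.552 without the 2 farthest animals, 0.547 centred on group means, 0.225 with library size only and 0.229 to 0.413 with each animal left out. No paired analysis was possible because replicate numbers were given in accession order and pair no animals.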
